A study of Mus musculus with 45 samples.

Results

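A set of 10 genes of fatty acid synthesis and desaturation, led by Me1, was followed through 2 RNA sequencing experiments in mouse tumour cells, out of 55335 genes in the table of each experiment. They are Me1, Acly, Acaca, Fasn, Scd1, Scd2, Elovl5, Elovl6, Acss2 and Fads2, found by their gene symbols. The set was chosen by measured values: Me1 was selected on its lower level with a compound in CT26 cells and not in Hepa1-6 cells, and genes of its pathway were added with their means in the same libraries known. The values of that contrast, and of the difference between the lines in it, are therefore given as a description with no test. The contrast of stk with DMSO in Hepa1-6 entered the choice as well, so its counts and p-values for these genes are a description too.

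The lines are CT26, from a mouse colon carcinoma, and Hepa1-6, from mouse liver. For the drug experiment, wild-type cells of each line received the compound that the labels call stk or the solvent DMSO for 48 hours. In the knockdown experiment, CT26 lines carried a Soat1 hairpin, either sh1, sh2 or sh3, or the luciferase hairpin shLucif, and Hepa1-6 lines carried a scrambled hairpin or shLucif, all collected 24 hours after seeding with no treatment. Soat1 encodes sterol O-acyltransferase, which esterifies cholesterol. Each of the 10 groups analysed holds 3 libraries. Samples labelled as further stk replicates of both lines, and as Soat1 hairpins in Hepa1-6, were not analysed here, since no column name matched them. The labels do not say whether the hairpin lines are clones or pools, nor whether replicates are separate cultures, so p-values measure the spread between these libraries, which may be technical. Levels are in FPKM, which scales the fragments of a gene by transcript length and library size and carries no read totals, so depth is unknown. Between 11159 and 11555 genes reached 1 FPKM per library.

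Cells make fatty acids in the cytosol from acetyl-CoA. ATP citrate lyase (Acly) frees acetyl-CoA from citrate and acetyl-CoA synthetase (Acss2) makes it from acetate. Acetyl-CoA carboxylase (Acaca) turns it into malonyl-CoA, and fatty acid synthase (Fasn) joins these units into palmitate with NADPH, part of which malic enzyme (Me1) supplies as it converts malate to pyruvate. Elovl6 lengthens the saturated product and Scd1 and Scd2 desaturate it, while Fads2 and Elovl5 desaturate and lengthen polyunsaturated fatty acids. Many of these genes are textbook targets of SREBP transcription factors in liver, and Me1 is also a known target of NRF2.

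The luciferase libraries of Hepa1-6 stood apart from the other libraries of that line. Alb, the hepatocyte albumin gene, was at 123 to 143 FPKM in Hepa1-6 scramble libraries, against 1.33 to 1.78 FPKM in Hepa1-6 shLucif libraries, and the liver transcription factor gene Hnf4a was at 42.0 to 44.7 FPKM with scramble, against 5.01 to 5.37 FPKM with shLucif. Col1a1, a collagen gene found at 18.03 to 19.6 FPKM in CT26 shLucif libraries, was at 0.0814 to 0.211 FPKM in Hepa1-6 scramble and 12.6 to 14.7 FPKM in Hepa1-6 shLucif libraries. Soat1 itself was at 0.0977 to 0.182 FPKM in Hepa1-6 scramble libraries, against 12.7, 12.8 and 13.6 FPKM with shLucif, and at 0.129 to 0.158 FPKM in Hepa1-6 DMSO libraries. The Hepa1-6 shLucif libraries are called "the libraries labelled Hepa1-6 shLucif" from here on. Over 13566 genes, their Pearson r of log2(FPKM + 1) was 0.911 to 0.914 with CT26 DMSO and 0.889 to 0.895 with CT26 shLucif libraries. It was 0.895 to 0.897 with Hepa1-6 DMSO and 0.891 to 0.895 with Hepa1-6 scramble libraries. For scale, r was 0.978 to 0.981 between Hepa1-6 scramble and Hepa1-6 DMSO libraries. Between Hepa1-6 scramble and CT26 shLucif libraries it was 0.746 to 0.751. Differences between the lines and the likeness to Me1 are also given without the libraries labelled Hepa1-6 shLucif, while the comparison of the control hairpins of Hepa1-6 rests on them. Hepa1-6 libraries otherwise held 9 of 18 hepatocyte markers at a mean of 1 FPKM or more, with summed levels of 654 to 810 FPKM. CT26 libraries held 1 to 3 of 15 intestinal epithelium markers at that level, led by Krt20, and the epithelial gene Epcam was at 0 in every CT26 library except 1 with sh3, at 0.0297 FPKM.

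In GRCm38, Acly (100476353 to 100528000), Acaca (84129672 to 84401651) and Fasn (120805846 to 120824547) lie on chromosome 11. Scd1 (44394455 to 44407879), Scd2 (44293674 to 44306864) and Fads2 (10062765 to 10101746) lie on chromosome 19, Elovl5 (77917364 to 77984519) on chromosome 9 with Me1, Elovl6 (129532355 to 129638495) on chromosome 3 and Acss2 (155517948 to 155585724) on chromosome 2.

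The promoter windows of Me1, Acly and Fasn are shown because Me1 moved against Acly and Fasn in the sh3 cells described below. Each runs from 250 bases before to 50 bases after the RefSeq start site, on the gene's own strand in build GRCm38.p6. Capitals mark matches, on either strand, to the textbook core letters CCAAT of the factor NF-Y, GGGCGG of the Sp1 family, TCACNCCAC of the sterol regulatory element, CACGTG of the E-box and TGACNNNGC of the antioxidant response element that NRF2 reads.
Me1, chr9:86695865-86696164, minus strand: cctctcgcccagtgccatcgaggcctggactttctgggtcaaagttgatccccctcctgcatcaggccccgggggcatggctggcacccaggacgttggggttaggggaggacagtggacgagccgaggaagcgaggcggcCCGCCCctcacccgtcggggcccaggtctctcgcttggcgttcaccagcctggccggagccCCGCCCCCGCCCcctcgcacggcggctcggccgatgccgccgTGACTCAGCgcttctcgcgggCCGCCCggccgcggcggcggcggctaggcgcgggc
Acly, chr11:100527951-100528250, minus strand: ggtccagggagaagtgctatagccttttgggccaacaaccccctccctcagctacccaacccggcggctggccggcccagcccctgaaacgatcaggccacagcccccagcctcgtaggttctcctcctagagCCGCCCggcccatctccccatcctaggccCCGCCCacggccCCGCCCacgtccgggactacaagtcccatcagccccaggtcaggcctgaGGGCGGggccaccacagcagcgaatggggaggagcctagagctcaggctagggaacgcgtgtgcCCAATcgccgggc
Fasn, chr11:120824498-120824797, minus strand: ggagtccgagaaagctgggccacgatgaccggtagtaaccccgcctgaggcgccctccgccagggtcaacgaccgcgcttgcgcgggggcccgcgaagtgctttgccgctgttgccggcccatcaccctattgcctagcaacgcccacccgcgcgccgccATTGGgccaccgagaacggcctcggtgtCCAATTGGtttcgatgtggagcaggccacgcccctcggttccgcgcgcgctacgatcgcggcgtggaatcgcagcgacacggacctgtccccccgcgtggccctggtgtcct
The Me1 window shown held 4 matches to GGGCGG and 1 to TGACNNNGC. A further RefSeq window of Me1, with its start site 8676 bases from the gene start, held 1 match to CCAAT and none to the other letters. Acly had 4 matches to GGGCGG and 1 to CCAAT, and Fasn had 3 to CCAAT, of which a pair overlap. Over 32851 promoter windows of all genes, 37.4% held CCAAT, 35.7% GGGCGG, 12.4% TGACNNNGC, 7.15% CACGTG and 1.24% TCACNCCAC. Windows were found for 8 of the 10 genes, and none of them held TCACNCCAC. The start site of the Acaca window lay 65766 bases from the gene start given above, so that gene start was not searched. The start site of the Fads2 window lay 243 bases from its gene start. A match is a description of letters and not of a bound site.

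Me1 (ENSMUSG00000032418, chromosome 9, 86581371 to 86695953, minus strand, GRCm38) had the largest difference of the set between the lines under DMSO. It stood at 70.4, 68.5 and 71.9 FPKM in Hepa1-6 cells, against 30.4, 30.5 and 32.0 FPKM in CT26 cells. The lines did not overlap, and the log2 fold change was 1.16 (SE 0.0358, limma adjusted p = 1.01e-10). In the knockdown table Hepa1-6 scramble libraries held 86.5, 90.3 and 88.0 FPKM, against 21.2, 22.4 and 23.6 FPKM in CT26 shLucif libraries. That difference, in which line and hairpin both change, was 1.93 (SE 0.0560, limma adjusted p = 2.84e-14). The libraries labelled Hepa1-6 shLucif lay between, at 52.0, 49.2 and 54.7 FPKM, and differed from CT26 shLucif by 1.18 (SE 0.0560, limma adjusted p = 3.53e-11).

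**Figure D1:**
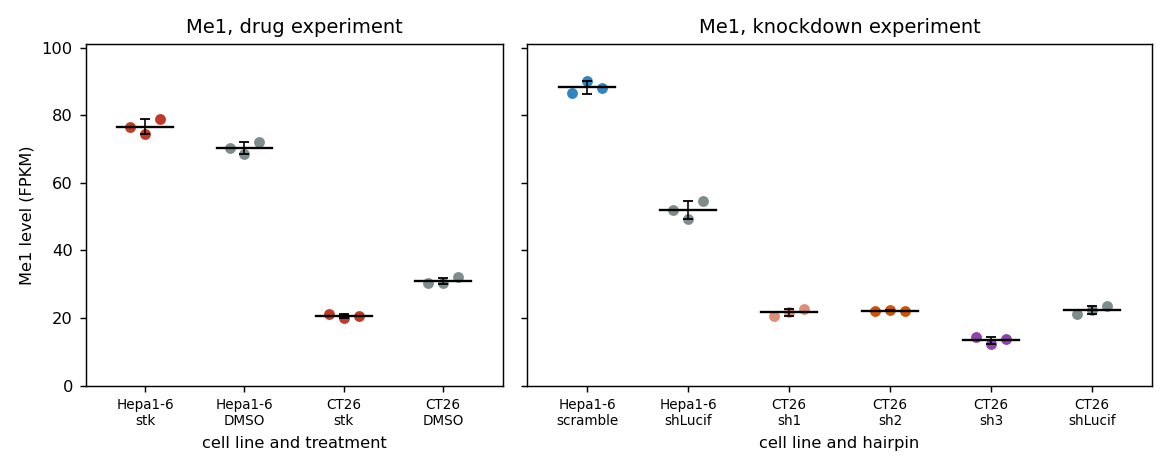
Me1 level in FPKM (vertical axis) in each library of the drug experiment (left) and the knockdown experiment (right), with points for libraries, a bar for the group mean and whiskers for the SD of 3 libraries. Hepa1-6 groups average 52.0 to 88.2 FPKM and all CT26 groups 13.4 to 31.0 FPKM, with stk below DMSO in CT26 and sh3 the lowest group.

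With stk, Me1 stood at 21.1, 20.0 and 20.7 FPKM in CT26 cells, against 30.4, 30.5 and 32.0 FPKM with DMSO. All 3 stk libraries lay below all 3 DMSO libraries, and the stk mean was 66.5% of the DMSO mean. On the log2(FPKM + 1) scale, used for every fold change here, that is -0.57 (SE 0.0405). In Hepa1-6 cells Me1 was at 76.4, 74.4 and 78.8 FPKM with stk, against 70.4, 68.5 and 71.9 FPKM with DMSO, a value of 0.12 (SE 0.0365). The stk response in CT26 minus that in Hepa1-6 was -0.69 (SE 0.0506). These values chose the gene, so they are a description, and nothing is read from the share of all genes that count in that difference, 0.304% in either direction and 0.195% lower.

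The other 9 genes had lower means with stk than with DMSO in CT26 as well, with log2 fold changes of -0.35 to -0.06. Fewer cells that express a gene and less RNA per cell cannot be told apart in bulk RNA. The median of the 10 genes was -0.18, beside -0.0055 for all 11358 genes tested. Counted as in the other comparisons, at an adjusted p under 0.05, the set holds 1 gene, Me1, where 0.748% of all genes count in either direction and 0.616% lower; the choice of Me1 fixed that count, and nothing is read from it. The range over libraries with stk lay below that with DMSO for Me1, Fasn, Scd1, Scd2, Elovl5 and Fads2, and overlapped for Acly, Acaca, Elovl6 and Acss2. How many of all genes have such ranges was not counted, and these libraries chose the set, so nothing is read from that division. Fasn was at 39.7, 40.2 and 42.9 FPKM with stk, against 46.3, 43.9 and 45.3 FPKM with DMSO. The desaturases leaned on a single library. Scd1 was at 61.2, 41.0 and 59.5 FPKM with stk, against 66.7, 63.6 and 73.6 FPKM with DMSO. Scd2 was at 42.6, 28.6 and 40.4 FPKM with stk, against 46.3, 43.7 and 51.0 FPKM with DMSO. Fads2 was at 42.5, 31.0 and 41.0 FPKM with stk, against 44.7, 42.6 and 47.9 FPKM with DMSO. Stk replicate 2 was the lowest library for all 3, and also for Srebf1, the gene of an SREBP factor, at 14.4 FPKM against 19.2 and 19.0 FPKM in the other stk libraries. Without that library the values were -0.17 for Scd1 and -0.17 for Scd2, where they were -0.35 for each with it, and -0.11 in place of -0.25 for Fads2. The ratio of Scd2 to Scd1 stayed at 0.679 to 0.698 in the stk libraries, against 0.687 to 0.695 in the DMSO libraries.

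In Hepa1-6 cells none of the 9 genes tested differed between stk and DMSO at an adjusted p under 0.05, where 1.53% of all 11426 genes did, 0.849% lower. Me1 was chosen as not lower in these libraries, and the means of the other genes were known. Nothing is therefore read from that count, and the p-values below are a description. Acss2, at 0.400 to 0.577 FPKM with stk and 0.424 to 0.595 FPKM with DMSO, was below the filter. The median of the 9 genes was 0.03, beside 0.0029 for all genes. Fasn had the lowest p, at 51.7, 53.5 and 50.5 FPKM with stk, against 46.7, 46.6 and 43.3 FPKM with DMSO (0.18, SE 0.0439, limma adjusted p = 0.0769, and 0.0304 when Hepa1-6 and CT26 were fitted together). Setting aside Me1, which was also under 0.05 but was chosen on these libraries, Fasn was the 1 gene of the set with an unadjusted limma p under 0.05. The share of all genes with such a p was not counted. Acaca was at 3.97, 4.01 and 4.20 FPKM with stk, against 3.43, 3.84 and 3.57 FPKM with DMSO, without overlap (0.13, SE 0.0600, limma adjusted p = 0.234). Scd1 and Scd2, the desaturases, overlapped between the treatments, at -0.06 (SE 0.0685) and 0.00034 (SE 0.0697).

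**Figure D2:**
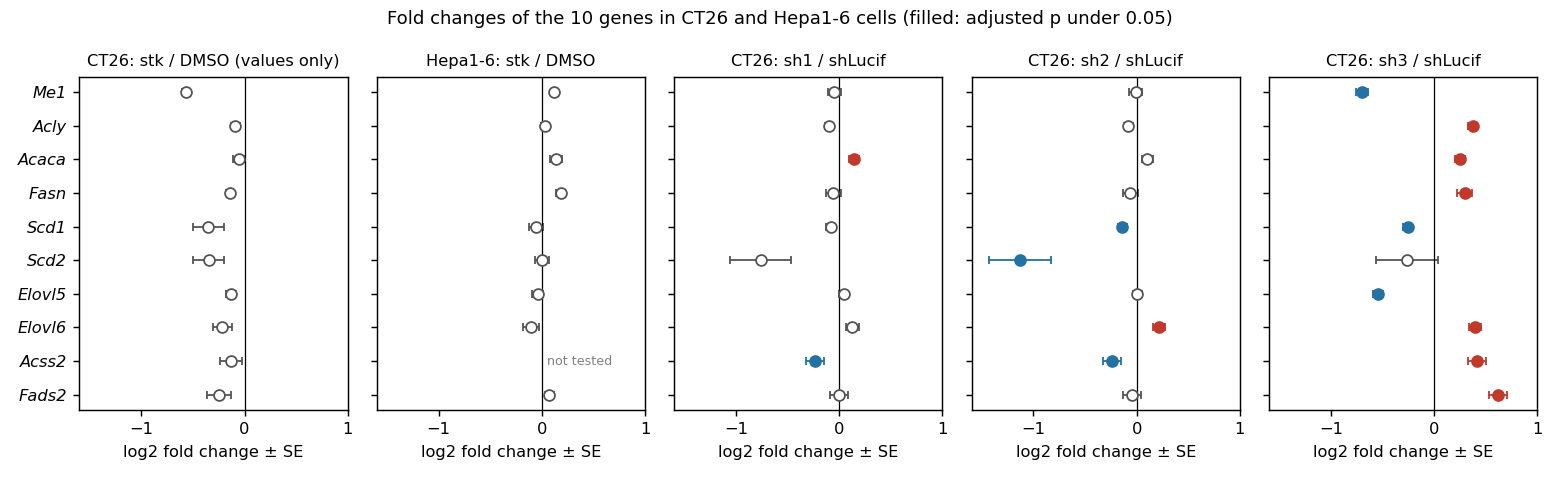
Log2 fold change of FPKM + 1 with its SE (horizontal axis) for the 10 genes, for stk over DMSO in CT26 (values only) and Hepa1-6, and for each Soat1 hairpin over shLucif in CT26. Filled points passed an adjusted p under 0.05 (red higher, blue lower). The Hepa1-6 stk libraries entered the choice of the set, so nothing is read from the lack of filled points there. All 10 points of CT26 with stk lie below 0, and sh3 has 6 filled points above 0 and 3 below.

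Soat1, the targeted gene, was at 3.29, 3.23 and 3.28 FPKM with sh1, 3.44, 3.55 and 3.41 FPKM with sh2 and 2.52, 2.54 and 2.71 FPKM with sh3, against 19.7, 19.8 and 20.2 FPKM with shLucif in CT26 cells. The 3 comparisons below share those shLucif libraries. Me1 passed the test with sh3 and not with sh1 or sh2. It was at 20.5, 21.8 and 22.7 FPKM with sh1, 22.1, 22.5 and 22.0 FPKM with sh2 and 14.3, 12.2 and 13.8 FPKM with sh3, against 21.2, 22.4 and 23.6 FPKM with shLucif. The sh3 libraries were all below every other CT26 library of the table. Their log2 fold change was -0.70 (SE 0.0605, limma adjusted p = 3.9e-06), and it ran from -0.74 to -0.64 when each library was left out. With sh1 the value was -0.05 (SE 0.0605, limma adjusted p = 0.582) and with sh2 it was -0.01 (SE 0.0605, limma adjusted p = 0.904).

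The enzymes that make acetyl-CoA and build palmitate from it were higher with sh3. Acly was at 50.8, 49.9 and 46.5 FPKM with sh3, against 37.1, 37.9 and 37.8 FPKM with shLucif, without overlap (0.37, SE 0.0399, limma adjusted p = 1.76e-05). Fasn was at 24.9, 25.0 and 20.5 FPKM with sh3, against 18.1, 19.1 and 19.3 FPKM with shLucif, with the third sh3 library nearest the control (0.30, SE 0.0735, limma adjusted p = 0.00555). Acaca was at 5.34, 5.57 and 5.23 FPKM with sh3, against 4.41, 4.29 and 4.35 FPKM with shLucif (0.25, SE 0.0503, limma adjusted p = 0.00141). Acss2 stood at 1.90, 1.61 and 1.56 FPKM with sh3, against 1.03, 0.957 and 1.05 FPKM with shLucif (0.42, SE 0.0861, limma adjusted p = 0.00186). At such low values the added 1 FPKM shrinks the fold: the ratio of the Acss2 means was 1.67.

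The elongases and desaturases divided. Fads2 rose with sh3 to 51.9, 51.4 and 46.8 FPKM, against 30.8, 29.9 and 35.8 FPKM with shLucif (0.62, SE 0.0874, limma adjusted p = 0.000127). Elovl6 rose with sh3 to 5.38, 6.02 and 5.21 FPKM, against 3.88, 4.11 and 3.91 FPKM with shLucif (0.39, SE 0.0604, limma adjusted p = 0.000239). Elovl5 fell with sh3 to 15.6, 15.2 and 14.4 FPKM, against 22.4, 22.0 and 22.7 FPKM with shLucif (-0.54, SE 0.0447, limma adjusted p = 2.87e-06). Scd1 fell less, to 48.9, 45.3 and 43.4 FPKM with sh3, against 54.0, 54.3 and 56.5 FPKM with shLucif (-0.26, SE 0.0457, limma adjusted p = 0.000694). In each of the 4, the sh3 and shLucif libraries did not overlap. How many of all genes were without overlap between these groups was not counted, so nothing is read from that. Of the 10 genes, 6 were higher with sh3, 3 were lower and Scd2 did not pass, where 52.5% of all 11832 genes tested passed in either direction, 30.9% higher and 21.6% lower. Their median was 0.28, beside 0.04 for all genes. Each of the 9 calls held when any single library was left out. Markers of other cell types moved in the same libraries: of 6 fibroblast markers tested 5 were higher with sh3, with summed levels of 189 to 197 FPKM against 131 to 134 FPKM with shLucif. Of 3 intestinal markers tested 2 were higher and Krt18 was lower, and their list summed to 43.9 to 48.3 FPKM with sh3, against 24.8 to 25.2 FPKM with shLucif, of which Krt20 alone averaged 41.9 FPKM with sh3 and 21.1 FPKM with shLucif. Their part in these results was not tested.

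**Figure D3:**
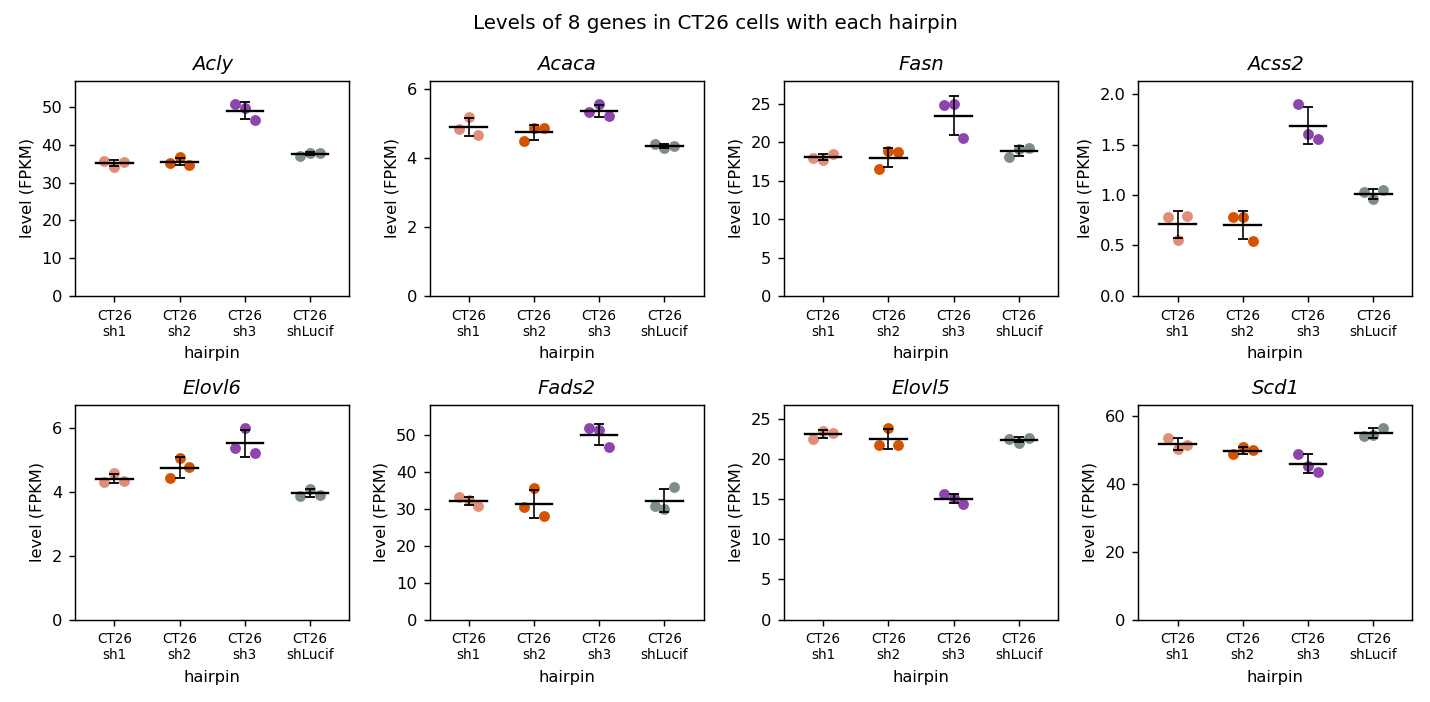
Level in FPKM (vertical axes, each starting at 0) of 8 genes in CT26 libraries with sh1, sh2, sh3 and shLucif, with points for libraries, a bar for the mean and whiskers for the SD of 3 libraries. Acly, Acaca, Fasn, Acss2, Elovl6 and Fads2 are highest with sh3, while Elovl5 and Scd1 are lowest with it.

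With sh1, 2 of the 10 genes passed, where 37.8% of all genes did (19.1% higher, 18.7% lower), and with sh2 4 passed, where 38.9% did (18.9% higher, 20% lower). Apart from Scd2, the log2 fold changes called were at most 0.24 in size, with Acss2 shrunk by the added 1 FPKM: its mean was 70.1% of that with shLucif for sh1 and 69.6% for sh2. With sh1, Acaca was higher (0.14, SE 0.0503, limma adjusted p = 0.0453) and Acss2 lower (-0.24, SE 0.0861, limma adjusted p = 0.0497), and leaving out single libraries ended the Acss2 call in each of 6 fits, while the Acaca call held only without sh1 replicate 3. With sh2, Elovl6 was higher (0.22, SE 0.0604, limma adjusted p = 0.0160), and Scd1 (-0.14, SE 0.0457, limma adjusted p = 0.0323), Acss2 (-0.24, SE 0.0861, limma adjusted p = 0.0447) and Scd2 were lower. The Scd1 call held only without sh2 replicate 2, the Acss2 call in none of 6 fits, and the Elovl6 call ended without sh2 replicate 2 or shLucif replicate 1. Acly was at 35.8, 34.2 and 35.3 FPKM with sh1 and 35.3, 36.7 and 34.7 FPKM with sh2, and Fads2 at 33.0, 32.3 and 30.8 FPKM with sh1 and 30.5, 35.6 and 27.95 FPKM with sh2, none of them called. Over the mean of the 3 hairpins, 3 genes were higher and 4 lower, where 43.1% of all genes passed (23.4% higher, 19.8% lower), and Me1 was at -0.25 (SE 0.0494, limma adjusted p = 0.00177), a value that averages sh3 with hairpins at which Me1 did not pass.

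The hairpins were then set against each other. Between sh3 and the mean of sh1 and sh2, 7 genes were higher and 3 lower, where 60.2% of all genes passed (35.5% higher, 24.7% lower). Me1 differed by -0.67 (SE 0.0524, limma adjusted p = 1.01e-06), Elovl5 by -0.57 (SE 0.0387, limma adjusted p = 3.81e-07), Acly by 0.46 (SE 0.0346, limma adjusted p = 7.3e-07) and Fads2 by 0.64 (SE 0.0757, limma adjusted p = 2.34e-05). Acss2 differed by 0.66 (SE 0.0745, limma adjusted p = 1.81e-05), since its sh1 and sh2 means lay below the control. Scd2 differed by 0.68 (SE 0.257, limma adjusted p = 0.0394), a call that ended in 7 of 9 fits without a library. The calls of Acaca and Scd1 ended under quantile normalization, at 0.05 and -0.10. Soat1 was itself lower with sh3 (-0.28, SE 0.0358, limma adjusted p = 4.12e-05), so the hairpin and the depth of the knockdown cannot be told apart.

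Scd2, a stearoyl-CoA desaturase like Scd1 and its neighbour on chromosome 19, was uneven between replicates of the knockdown table. It was at 33.4, 28.4 and 20.4 FPKM with sh1, 19.6, 22.8 and 19.5 FPKM with sh2 and 40.7, 40.1 and 34.5 FPKM with sh3, against 33.1, 84.9 and 35.0 FPKM with shLucif in CT26. Replicate 2 of shLucif was 2.50 times the mean of the other shLucif libraries, and 9 of 4645 genes at 10 FPKM or more were as far off in that library. With it, Scd2 was lower with sh2 (-1.13, SE 0.297, limma adjusted p = 0.0115) and not called with sh1 (-0.76, limma adjusted p = 0.0658) or sh3 (-0.26, limma adjusted p = 0.483). Without it the values were -0.70 with sh2 (limma adjusted p = 0.00892), -0.33 with sh1 (limma adjusted p = 0.156) and 0.17 with sh3 (limma adjusted p = 0.428). The sign for sh3 thus turned with that library. In Hepa1-6 cells Scd2 was at 69.8, 279 and 276 FPKM with scramble, against 33.7, 36.4 and 38.3 FPKM in the libraries labelled shLucif. Scramble replicate 1 was 0.252 times the mean of the other scramble libraries, as far as 5 of 4721 genes went. Scd1 was even in the same libraries, at 62.5, 64.7 and 64.2 FPKM with scramble. Of 50-base stretches of its transcripts, 3.97% of those of Scd2 also occur in another gene's, mostly in Scd1.

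**Figure D4:**
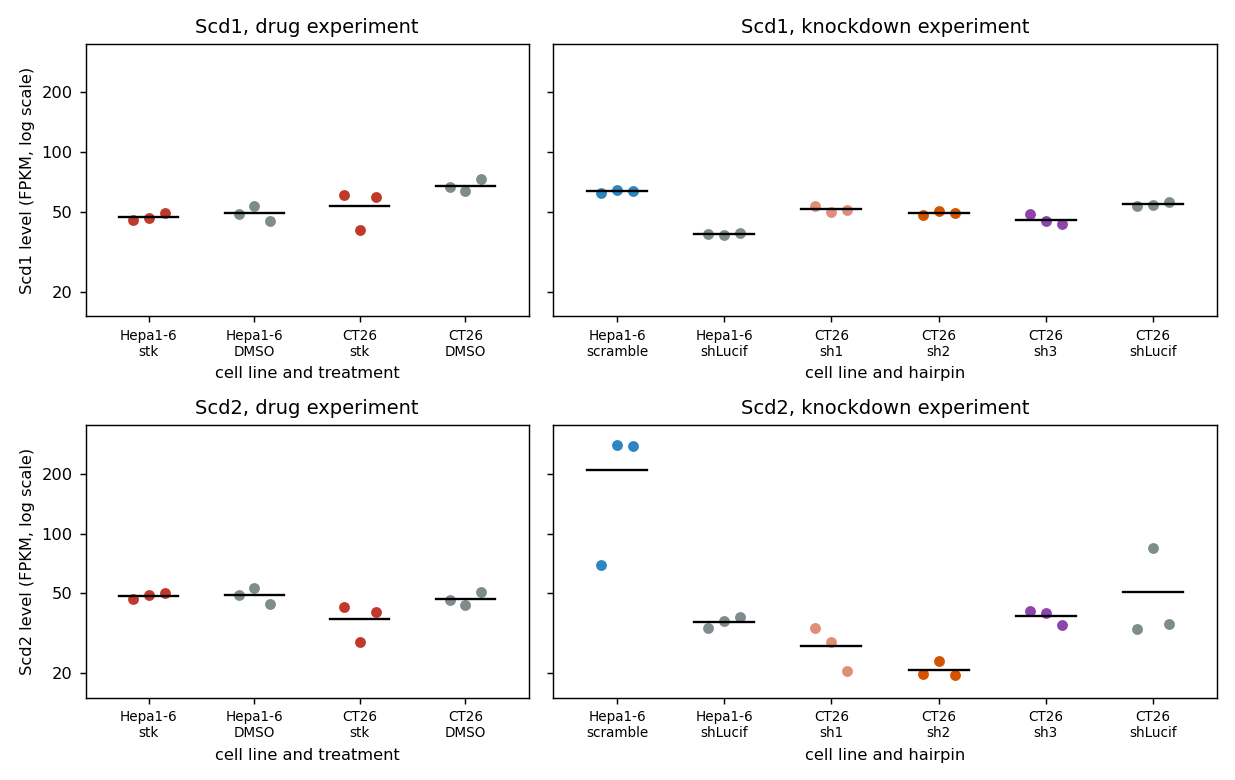
Level of Scd1 (top) and Scd2 (bottom) in FPKM on a log axis in each library of the drug (left) and knockdown (right) experiments, with a bar for the group mean. Scd1 replicates lie close together in the knockdown experiment, while Scd2 has 1 shLucif library of CT26 at 84.9 FPKM and 1 scramble library of Hepa1-6 at 69.8 FPKM, far from their groups.

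Between the lines under DMSO, 3 genes were higher in Hepa1-6, 4 were lower and 3 did not pass, where 76.8% of all 12822 genes passed (38.4% higher, 38.5% lower). Beside Me1, Acly was higher in Hepa1-6, at 62.7, 62.1 and 58.8 FPKM against 53.4, 53.1 and 55.4 FPKM in CT26 (0.18, SE 0.0405, limma adjusted p = 0.00193). Elovl5 was higher in Hepa1-6 too, at 31.0, 29.7 and 29.0 FPKM against 23.9, 26.0 and 24.6 FPKM in CT26 (0.26, SE 0.0484, limma adjusted p = 0.000508). Fads2 was lower in Hepa1-6, at 27.7, 27.9 and 25.8 FPKM against 44.7, 42.6 and 47.9 FPKM in CT26 (-0.71, SE 0.0976, limma adjusted p = 4.48e-05). Acaca (-0.63), Scd1 (-0.45) and Acss2 (-0.49) were lower as well. Fasn, Scd2 and Elovl6 did not pass, at 0.01 (SE 0.0428), 0.05 (SE 0.128) and 0.07 (SE 0.0861).

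In the knockdown experiment the set looked different between the lines. Hepa1-6 scramble and CT26 shLucif differ in hairpin as well as line. Between them, 8 genes were higher in Hepa1-6, Acss2 was lower and Acaca did not pass, where 79.9% of all 13129 genes passed (39.1% higher, 40.8% lower). Fasn stood at 47.2, 47.9 and 49.9 FPKM in Hepa1-6 scramble, against 18.1, 19.1 and 19.3 FPKM in CT26 shLucif (1.32, SE 0.0635, limma adjusted p = 1.92e-11), and Elovl6 at 15.4, 12.3 and 11.2 against 3.88, 4.11 and 3.91 FPKM (1.48, SE 0.0845, limma adjusted p = 1.57e-10). Fads2 differed by 0.21 (SE 0.0898, limma adjusted p = 0.0435), a call that held only without CT26 shLucif replicate 3. With the libraries labelled Hepa1-6 shLucif in place of scramble, 5 genes were higher and 2 lower, where 72.4% passed (39.4% higher, 33% lower). Fads2 was then at 9.51, 12.0 and 10.5 FPKM, below every CT26 library (-1.51, SE 0.0898, limma adjusted p = 5.44e-10), and Scd1 lay at -0.49 where scramble gave 0.21. The direction of both genes thus depends on which libraries stand for the line. Whether the hairpin or another feature of the libraries labelled shLucif gives that change was not tested. CT26 itself was not at the same level in both experiments: Fasn averaged 45.2 ± 1.21 FPKM with DMSO and 18.8 ± 0.646 FPKM with shLucif (SD, n = 3 each), in tables that were normalized separately.

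**Figure D5:**
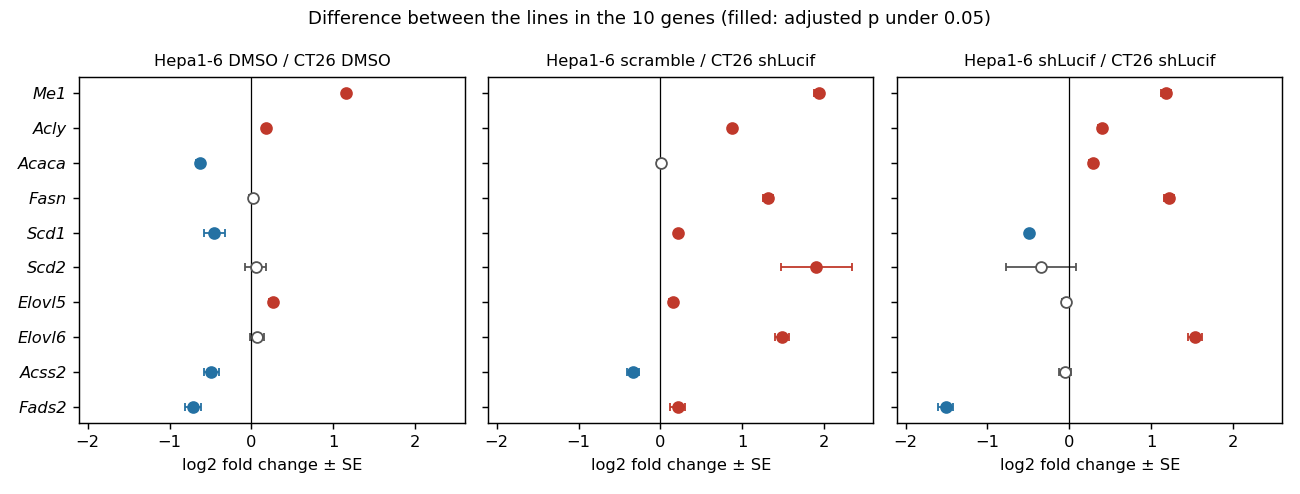
Log2 fold change of FPKM + 1 with its SE (horizontal axis) for the 10 genes between Hepa1-6 and CT26 under DMSO (left), for Hepa1-6 scramble over CT26 shLucif (middle) and for the libraries labelled Hepa1-6 shLucif over CT26 shLucif (right). Filled points passed an adjusted p under 0.05. Me1 is higher in Hepa1-6 in all 3 panels, at 1.16, 1.93 and 1.18, while Fads2 lies at -0.71, 0.21 and -1.51.

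Between the control hairpins of Hepa1-6, scramble against the libraries labelled shLucif, 7 of the 9 genes tested were higher and Acaca was lower, with Fasn (0.10, limma adjusted p = 0.0389) called only without scramble replicate 1 when libraries were left out, where 68.2% of all 12055 genes passed (31.4% higher, 36.8% lower). Me1 was at 86.5, 90.3 and 88.0 FPKM with scramble, against 52.0, 49.2 and 54.7 FPKM in those libraries (0.75, SE 0.0450, limma adjusted p = 9e-06). Fads2 was at 37.0, 39.0 and 35.9 FPKM with scramble, against 9.51, 12.0 and 10.5 FPKM (1.72, SE 0.0800, limma adjusted p = 2.74e-06). Scd2 differed by 2.25, and by 2.91 without scramble replicate 1 (limma adjusted p = 1.65e-06). All 9 hepatocyte markers tested were higher with scramble too, with summed levels of 759 to 810 FPKM against 118 to 121 FPKM, and their part in these differences was not tested.

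Neighbouring pathways were counted from lists. The counts with sh3 stand beside the 30.9% of all genes that were higher and 21.6% that were lower. Of 20 cholesterol biosynthesis genes tested, 17 were higher with sh3 than with shLucif in CT26 and 1 was lower (median 0.55, beside 0.04 for all genes). With sh1, 3 were higher and 4 lower, where 19.1% and 18.7% of all genes were. With sh2, 5 were higher and 3 lower, where 18.9% and 20% were. Between scramble and the libraries labelled Hepa1-6 shLucif, 19 of 22 such genes were higher with scramble and 2 lower (median 0.69, beside -0.04), where 31.4% and 36.8% were. Acat2, which starts the pathway from acetyl-CoA, was at 18.4, 18.5 and 17.7 FPKM with sh3, against 6.74, 6.66 and 6.31 FPKM with shLucif (1.34, SE 0.144, limma adjusted p = 1.80e-05). It was at 5.60, 8.16 and 5.26 FPKM with sh1 and 8.88, 5.88 and 7.22 FPKM with sh2. With stk in CT26 all 20 means lay below DMSO (median -0.28, beside -0.0055), with none past the threshold. Without stk replicate 2, 18 of the 20 lay below and the median was -0.16. With stk in Hepa1-6, 15 of 22 such genes lay below DMSO and 7 above (median -0.13, beside 0.0029 for all genes). There, 1 was called lower, where 0.849% of all genes were. Of other genes of fatty acid synthesis and elongation, 7 of 16 were higher with sh3 and 2 lower, among them Acacb, the acetyl-CoA carboxylase of the mitochondrial surface, higher by 0.57 (SE 0.0650, limma adjusted p = 2.87e-05). Acacb is a low gene here, at 0.104 to 1.86 FPKM over all 30 libraries (median 0.709). Of the regulators, 9 of 18 were higher with sh3 and 5 lower. Insig1, a sterol sensor that holds SREBP precursors in the endoplasmic reticulum, was higher with sh3 by 0.83 (SE 0.0989, limma adjusted p = 3.75e-05). Higher Insig1 levels were not confined to sh3. They were 16.9 to 19.02 FPKM with sh1 and 19.8 to 20.9 FPKM with sh2. Both ranges lay above the 11.8 to 14.97 FPKM of the CT26 shLucif libraries. Srebf1 was at 20.4, 19.6 and 17.9 FPKM with sh3, against 13.7, 12.5 and 12.1 FPKM with sh1 and 11.8, 11.3 and 11.9 FPKM with sh2 (0.62 against their mean, SE 0.0493, limma adjusted p = 1.15e-06).

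Other sources of NADPH were mixed. Of 16 such genes tested, 7 were higher with sh3 than with shLucif and 3 were lower (median 0.11), beside 30.9% and 21.6% of all genes. The mitochondrial malic enzyme Me3 was higher with sh3 (0.58, SE 0.0583, limma adjusted p = 1.08e-05), at a mean of 1.57 ± 0.0966 FPKM against 0.713 ± 0.0466 FPKM with shLucif (SD, n = 3 each). Pgd, of the pentose phosphate pathway, was higher by 0.83 (SE 0.104, limma adjusted p = 5.40e-05), and the mitochondrial folate enzyme Aldh1l2 was lower (-0.81, SE 0.0732, limma adjusted p = 5.55e-06). Of 11 citrate and malate shuttle genes, Slc25a13, a mitochondrial aspartate carrier, was lower with stk in Hepa1-6, at 11.5, 13.0 and 12.9 FPKM against 18.9, 18.9 and 20.6 FPKM with DMSO (-0.61, SE 0.0622, limma adjusted p = 0.0222).

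Over the 30 libraries, each centred on the mean of its line and table, the genes whose levels ran most like Me1 among 7421 were Ddx47 (Pearson r 0.897), Pgrmc2 (0.896), Chchd4 (0.886), Dhrs7b (0.874) and Mrpl24 (0.871). Elovl5 (0.814) ranked 46 and Scd1 (0.775) ranked 103, while Acly was at -0.01, Fasn at -0.24 and Elovl6 at -0.28. Those 3 values mix opposite signs: in the 12 drug libraries they were 0.69, 0.64 and 0.59, and in the 12 CT26 knockdown libraries -0.93, -0.85 and -0.81. Me1 was chosen on the drug libraries, with the means of the other genes there known, so nothing is read from the sign in those libraries. Without the Hepa1-6 knockdown libraries, over 24 libraries, Acly was at -0.65, Fasn at -0.44, Elovl6 at -0.31, Elovl5 at 0.86 and Scd1 at 0.62. The 5 genes most like Me1 over all 30 libraries were then at 0.810 to 0.866, and genes were not ranked again over the 24. The libraries of a group share their treatment, so these are descriptions of likeness and carry no p. Me1 and Acaca share sequence with processed pseudogenes: 28.3% of the 50-base stretches of Me1 transcripts and 30.4% of those of Acaca also occur in another annotated gene, mostly Gm7049 and Gm5182, so part of their reads could have been assigned elsewhere. For Acly, Fasn and Elovl5 no such stretch was found.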

How the data were processed

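Gene levels were taken as FPKM from the 2 tables the authors deposited, 1 per experiment (their names give the experiments the other way round, so columns were assigned by their own names), from total RNA prepared with TRIzol and, for certain samples, a SMARTer kit, and sequenced in pairs on an Illumina HiSeq after trimming with Skewer, per the labels' protocols. GRCm38, HISAT2, STAR, DESeq2 and edgeR are named per the submitters' processing notes; which of them made the values is not given in the sources used here. As FPKM hold no read totals, no counting interval is given.

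Columns were matched to samples by name: 30 columns were used (12 drug, 18 knockdown), of which the 3 of CT26 sh1 name the group but no single sample, and 21 columns whose names match neither a labelled sample nor a group were not used. Levels were tested as log2(FPKM + 1) in limma (version 3.58.1, under R 4.3.3), fitting group means with an intensity trend, over genes at 1 FPKM or more in at least 3 libraries of the model, with Benjamini-Hochberg adjustment over all genes tested and a threshold of 0.05. The added 1 FPKM understates changes of low genes. Differences between lines were fitted over both lines of a table, and all others within a line.

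Members and lists were chosen with earlier results of these data known. From each other list, up to 4 called genes with the largest fold change could be named per comparison, and the 5 genes most like Me1; others named (Srebf1, Alb, Hnf4a, Col1a1, Krt20, Epcam) were chosen after their values were seen. Alternatives were the pseudocount, the filter, quantile normalization, a replicate block, all libraries in 1 model, and each library left out. Added after seeing the data were a fit on protein-coding genes, a trend with exon length and the comparison of Hepa1-6 scramble with CT26 shLucif. The test was checked on simulated data. Positions come from GENCODE M21 and promoter windows from RefSeq.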

Additional observations from a re-analysis of the deposited data

Results flagged for a closer look

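The response of Me1 to stk differed between the lines: the log2 fold change in CT26 minus that in Hepa1-6 was -0.69 (SE 0.0506) by the interaction term of the limma model, with stk below DMSO in 3 of 3 CT26 libraries and above DMSO in 3 of 3 Hepa1-6 libraries. This contrast is the one that led to the choice of Me1, so the term is no independent support.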

How the results depend on the processing

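Of the 10 genes, 1 (Me1, which was chosen on this contrast) counted with stk in CT26, and 0 under the replicate block and 0 to 1 with a library left out. In Hepa1-6, whose stk libraries also entered the choice of the set, 0 were called, and 1 (Fasn) with all libraries in 1 model. For the difference between the lines 1 counted (Me1 again), and 2 under quantile normalization. With sh1, 2 were called, against 1 with a pseudocount of 0.1, 0 without a filter, 0 at a minimum of 5 FPKM, 1 with the exon length trend removed and 0 to 1 with a library left out. With sh2, 4 were called, against 2 without a filter, 2 under the replicate block, 2 with all libraries in 1 model and 1 to 2 with a library left out. No called value changed sign. Correlations of same-numbered deviations were -0.0497 to 0.105, against a threshold of 0.1 set for pairing. Only replicate 1 of sh2 with shLucif in CT26 was above it. The main fits did not pair libraries by number, and sh1 carried no usable number. Over all genes, calls with stk in CT26 fell to 4 under the block, against 85, and ran from 2 to 92 with a library left out. In Hepa1-6 they were 175, against 4 under the block, 928 in 1 model and 8 to 59 with a library left out. For the difference they were 39, against 6 under the block and 7 to 28. The share of higher calls moved with stk in CT26 to 30.2% under quantile normalization and 40.0% with exon length removed, against 17.6%, and with sh3 to 47.7% with exon length removed, against 58.8%. Causes of these shifts were not tested. Genes near 1 FPKM, such as Acss2, are limited by low signal.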

Other observations

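Counts of other lipid lists with sh3 in CT26 stand beside 30.9% of all genes higher and 21.6% lower, with no test of the lists. Of 18 genes of triglyceride and phospholipid assembly, 9 were higher and 3 lower than with shLucif (median 0.18). Gpat3, an acyltransferase that starts glycerolipid assembly, averaged 10.3 ± 2.001 FPKM with sh3 and 23.8 ± 0.399 FPKM with shLucif (SD, n = 3 each), a log2 fold change of -1.15 (limma adjusted p = 3.31e-06). Of 18 fatty acid oxidation genes, 7 were higher and 3 lower (median 0.13). Acadvl, a mitochondrial acyl-CoA dehydrogenase, averaged 17.1 ± 0.706 FPKM with sh3 and 10.3 ± 0.591 FPKM with shLucif (0.68, limma adjusted p = 6.09e-06), while Hadha, of the trifunctional protein, averaged 12.8 ± 0.333 and 18.3 ± 0.353 FPKM (-0.48, limma adjusted p = 2.66e-06). Of 16 NRF2 targets, 6 were higher and 1 lower (median 0.17), with Ugdh at 0.53 (limma adjusted p = 7.35e-05).

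Some levels in the sh3 libraries lay near those of CT26 cells with DMSO in the other table, which was normalized separately, so no test was made. Col1a1 was at 54.3 to 57.8 FPKM with sh3 and 53.0 to 56.6 FPKM with DMSO, and at 18.03 to 19.6 FPKM with shLucif. Acly averaged 49.1 FPKM with sh3, 54.0 ± 1.28 FPKM with DMSO and 37.6 FPKM with shLucif, and Srebf1 19.3, 20.5 and 13.7 FPKM in the same order. Other genes did not: Me1 averaged 13.4 FPKM with sh3, 31.0 FPKM with DMSO and 22.4 FPKM with shLucif, Fasn 23.5, 45.2 and 18.8 FPKM, Elovl6 5.54, 10.8 and 3.96 FPKM, Elovl5 15.1, 24.8 and 22.4 FPKM, and Scd1 45.9, 68.0 and 54.9 FPKM.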
